A study of Mus musculus with 4 samples.

Results

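Regulators of G-protein signalling (RGS proteins) were followed in mouse islets at a low (2.8 mM) and a high (16.8 mM) concentration of glucose. The group comprised 9 genes, *Rgs2*, *Rgs3*, *Rgs4*, *Rgs7*, *Rgs8*, *Rgs9*, *Rgs11*, *Rgs16* and *Rgs17*, taken by symbol from a table of 33923 entries. They held 14 entries of that table, of which 12 were distinct, and a gene with several entries is given by the one of highest mean RPKM over the libraries. Islets are clusters of endocrine cells, so a value averages over beta, alpha, delta and other cells, and fewer cells of a type cannot be told apart from less RNA per cell. Islets came from wild-type male C57bl6 mice of 3 months. They were pooled, cultured overnight at 11 mM glucose and kept for 2 h at 2.8 mM glucose. By the series description, 12 h at either concentration followed, whereas by the labels of the samples the incubation lasted 2 h at 2.8 mM and 12 h at 16.8 mM glucose. If the labels are right, glucose and time in culture cannot be told apart. RNA-seq libraries were made with total RNA as the input, in duplicate at each concentration, 4 in all. Nothing states that the duplicates came from separate animals, so the p-values below measure the spread between these libraries, which may be technical.

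A receptor coupled to a heterotrimeric G protein acts by loading the alpha subunit with GTP, and the signal ends when the alpha subunit hydrolyses it. RGS proteins speed up that hydrolysis and so shorten signalling, mostly through the Gi and Gq classes. The R4 subfamily (*Rgs2*, *Rgs3*, *Rgs4*, *Rgs8* and *Rgs16* here) holds mostly small proteins built around the RGS domain. The R7 subfamily (*Rgs7*, *Rgs9* and *Rgs11*) is obligately bound to the beta subunit *Gnb5* and is best known from neurons and photoreceptors, whereas *Rgs17* belongs to the RZ subfamily. In islets, Gi-coupled receptors for adrenaline and somatostatin restrain insulin secretion and Gq-coupled receptors for acetylcholine and fatty acids promote it.

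Depth was recovered from the steps of the deposited RPKM values (reads scaled to length in kilobases and to library depth) and lay between 50810800 and 60719200 reads per library. Lengths that include the introns gave whole reads far more often than exonic lengths did: 83.2% to 84.5% of low values of spliced genes came out within 0.08 reads of a whole number by span, against 13.7% to 15.8% by exons. The hormone genes that define islet cells were abundant in every library. Summed beta cell markers ran from 20565 to 22913 RPKM at 2.8 mM and from 40959 to 43731 RPKM at 16.8 mM glucose, with 6 of 8 markers higher. Summed alpha cell markers overlapped between the groups (1665 and 2172 against 1486 and 2114 RPKM, with 0 of 4 tested markers past the threshold), and so did summed macrophage and leukocyte markers (at most 14.2 RPKM, with *Cd3e* listed at 0 in all libraries). The hormone of PP cells, *Ppy*, also overlapped (960 and 729 against 1138 and 826 RPKM). Summed acinar markers were 97.4 and 278 RPKM at 2.8 mM and 234 and 483 RPKM at 16.8 mM glucose. Summed duct markers were 20.4 and 17.9 RPKM against 28.3 and 36.5 RPKM, and delta cell markers 598 and 447 RPKM against 703 and 695 RPKM. Summed endothelial (2.84 to 4.62 RPKM) and stromal markers (2.03 to 3.52 RPKM) overlapped between the groups. Of the endothelial markers, *Pecam1* (0.2465 and 0.1759 against 0.4588 and 0.2859 RPKM) did not overlap and was higher at 16.8 mM glucose. The same held for *Cdh5* (0.4085 and 0.2347 against 0.6193 and 0.4127 RPKM), whereas the other endothelial markers overlapped. The part of these marker levels in the values of the RGS genes was not tested.

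At 16.8 mM glucose 4 RGS genes rose, namely *Rgs4*, *Rgs11*, *Rgs16* and *Rgs9*, and *Rgs2* did not pass the test. These 5 members averaged 1 RPKM or more over the libraries and were tested with limma on log2(RPKM + 0.5) and adjusted over all 7867 transcripts tested. In the background, 10.7% of the transcripts tested were called higher and 22.8% were called lower, 33.4% in either direction. The other 4 members, *Rgs3*, *Rgs17*, *Rgs7* and *Rgs8*, lay under that minimum. They were compared by limma voom on reads reconstructed from RPKM, span and depth, which covered all 9 members and called 5 higher and 1 lower, with 3 not called. Of the 17065 genes and transcripts in that fit, 13.7% were called higher and 29.3% lower, 43% in all. Values of the groups did not overlap for 7 of the 9 members, of which *Rgs3*, *Rgs17* and *Rgs8* lay under the minimum of 1 RPKM. Among the 5 members tested in limma only *Rgs2* overlapped, and 70.4% of all transcripts tested there showed no overlap.

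**Figure D1:**
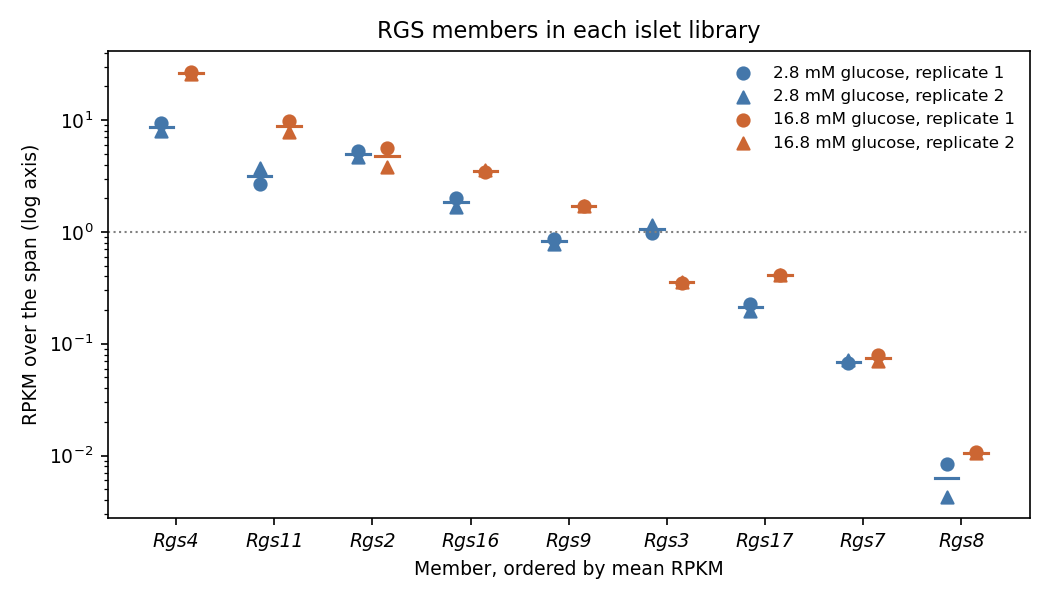
RPKM over the genomic span of each RGS gene (log axis) in the 4 islet libraries, with circles for replicate 1, triangles for replicate 2, short lines for group means and a dotted line at 1 RPKM. *Rgs4* stands highest, between 8.05 and 26.9 RPKM, and both 16.8 mM libraries lie above both 2.8 mM libraries for *Rgs4*, *Rgs11*, *Rgs16*, *Rgs9*, *Rgs17* and *Rgs8* and below them for *Rgs3*.

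Among the R4 members, *Rgs4* had the highest level per span and the largest rise. *Rgs4* limits signalling from Gi- and Gq-coupled receptors and is known in beta cells as a brake on the muscarinic acetylcholine receptor. Its level was 9.43 and 8.05 RPKM in the 2.8 mM libraries and 26.9 and 25.7 RPKM in the 16.8 mM libraries, with no overlap. The means were 8.74 ± 0.976 and 26.3 ± 0.876 RPKM (SD, n = 2), a 3.01-fold difference. The log2 fold change was 1.54 (SE 0.13, limma adjusted p = 4.6e-04), and 67 of the transcripts tested, or 0.852%, had a larger rise. On reconstructed reads, between 2578 and 10068 per library over 6.166 kb, the log2 fold change was 1.59 (voom adjusted p = 1.1e-09).

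*Rgs16*, which acts on Gi and Gq alpha subunits and is known from the developing pancreas, lay lower and rose less. It measured 2.02 and 1.68 RPKM at 2.8 mM and 3.43 and 3.58 RPKM at 16.8 mM glucose. Both 16.8 mM libraries thus lay above both 2.8 mM libraries, a 1.90-fold difference of the means (1.85 ± 0.237 and 3.51 ± 0.108 RPKM, SD, n = 2). Its log2 fold change was 0.77 (SE 0.10, limma adjusted p = 0.00224) and 0.92 on reconstructed reads (voom adjusted p = 2.0e-05).

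*Rgs2*, known for its preference for Gq, had 5.31 and 4.71 RPKM at 2.8 mM and 5.64 and 3.81 RPKM at 16.8 mM glucose. The 16.8 mM libraries held both its highest and its lowest value, so the groups overlapped. The log2 fold change was -0.10 with a 95% interval from -0.50 to 0.31 (limma adjusted p = 0.683). Leaving out replicate 2 at 16.8 mM turned the sign to 0.16, and in voom leaving out replicate 1 at 16.8 mM gave -0.40 (adjusted p = 0.027).

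*Rgs3*, a longer R4 protein with several isoforms, was the member that was lower at 16.8 mM glucose. The entry with the highest mean measured 0.981 and 1.15 RPKM at 2.8 mM and 0.348 and 0.360 RPKM at 16.8 mM glucose, which makes the means 3.01-fold lower (1.07 ± 0.122 and 0.354 ± 0.00849 RPKM, SD, n = 2). The other 2 distinct entries of the gene were also lower in both 16.8 mM libraries, 2.79-fold and 2.50-fold by their means. Its mean lay under the minimum of 1 RPKM. With no minimum its log2 fold change was -0.87 (limma adjusted p = 0.038, where 9.13% of entries were called, 6.17% lower and 2.96% higher), and in voom it was -1.59 (adjusted p = 1.9e-09, or 7.0e-04 with reads taken from the shortest span). Its annotated transcripts with 4 or more exons span 1.474 to 99.994 kb, and an entry could not be matched to one of them, so no read number is given. An antisense gene inside it, *Gm11209*, was not analysed here, and the strand used in counting is not stated.

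*Rgs8*, the R4 member next to *Rgs16* on chromosome 1, was close to the limit of detection. Its values of 0.0084 and 0.0043 RPKM at 2.8 mM and 0.0107 and 0.0106 RPKM at 16.8 mM glucose stood for about 22, 10, 29 and 24 reads. The groups did not overlap, but the voom log2 fold change of 0.78 had a 95% interval from -0.02 to 1.58 (adjusted p = 0.107), and no difference was detected between these libraries.

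Of the R7 members, *Rgs11* and *Rgs9* rose and *Rgs7* did not pass the test. *Rgs11*, known from the retina, had 2.65 and 3.73 RPKM at 2.8 mM and 9.71 and 7.86 RPKM at 16.8 mM glucose. Its duplicates differed more than those of *Rgs4*, yet the groups lay far apart (3.19 ± 0.759 and 8.78 ± 1.31 RPKM, SD, n = 2, a 2.75-fold difference). The log2 fold change was 1.34 (SE 0.17, limma adjusted p = 0.00185), and 103 transcripts tested had a larger rise. With no minimum, where all 28047 distinct entries were tested, the same log2 fold change had an adjusted p of 0.0622 in limma, and in voom it was 1.48.

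*Rgs9*, known for ending the light response of photoreceptors and from the striatum, had 0.866 and 0.777 RPKM at 2.8 mM and 1.72 and 1.69 RPKM at 16.8 mM glucose. Both 16.8 mM libraries lay well above 1 RPKM and both 2.8 mM libraries below it, a 2.08-fold difference of the means. Its log2 fold change was 0.74 (SE 0.079, limma adjusted p = 0.00104), and 1.05 in voom (adjusted p = 9.5e-08). The other distinct entry of *Rgs9* gave 0.73. As its 2.8 mM libraries were under 1 RPKM, it passed the minimum on the strength of the 16.8 mM libraries, and the minimum applied to every library left 3 members called higher.

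*Rgs7*, a mostly neuronal R7 protein, measured 0.0667 and 0.0709 RPKM at 2.8 mM and 0.0799 and 0.0696 RPKM at 16.8 mM glucose over a span of 431 kb. The groups overlapped, and the voom log2 fold change was 0.12 with a 95% interval from -0.10 to 0.35 (adjusted p = 0.378). With reads taken from the shortest span the interval was wider, from -0.35 to 0.60 (voom adjusted p = 0.668). A rise of the size seen in *Rgs9* in voom (1.05) lies outside both intervals.

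*Rgs17*, the RZ member, which acts on Gz and other Gi-class subunits, rose in voom. It had 0.226 and 0.197 RPKM at 2.8 mM and 0.412 and 0.414 RPKM at 16.8 mM glucose, a 1.95-fold difference with no overlap. In voom its log2 fold change came to 0.96 (adjusted p = 1.5e-06). Without a minimum the limma adjusted p was 0.0402 at a log2 fold change of 0.36, which the added 0.5 RPKM holds down at this level.

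**Figure D2:**
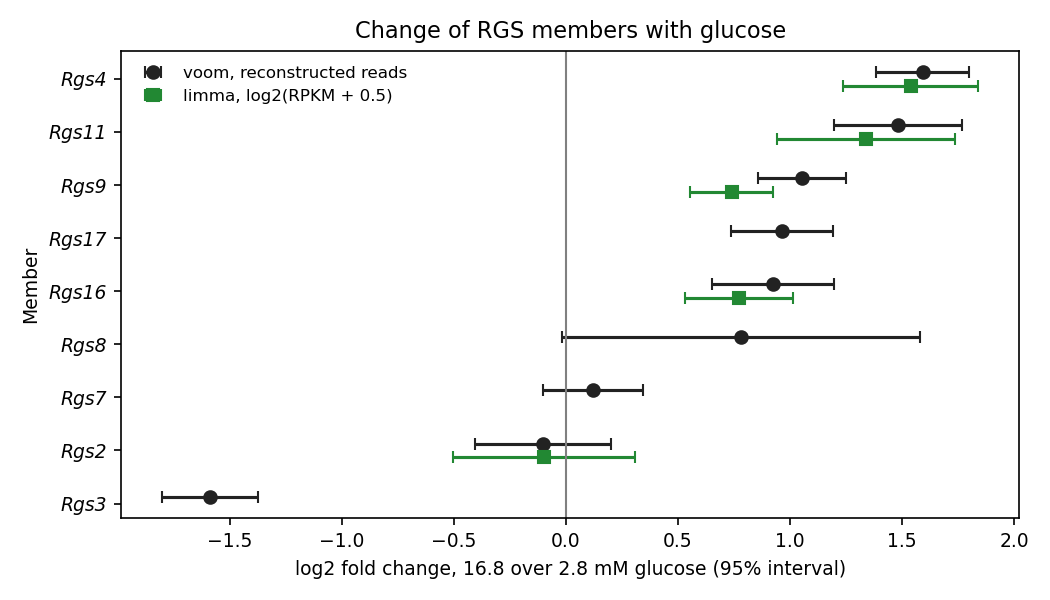
Log2 fold change of each RGS gene, 16.8 over 2.8 mM glucose, with 95% intervals, by limma voom on reconstructed reads (circles, 9 genes) and by limma on log2(RPKM + 0.5) (squares, the 5 genes averaging 1 RPKM or more). The voom estimates run from -1.59 for *Rgs3* to 1.59 for *Rgs4*, and the intervals of *Rgs2*, *Rgs7* and *Rgs8* include 0.

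The order of the RGS genes by level depended on the length used and on glucose. By mean RPKM over the span in the 4 libraries it was *Rgs4*, *Rgs11*, *Rgs2*, *Rgs16*, *Rgs9*, *Rgs3*, *Rgs17*, *Rgs7* and *Rgs8*. At 2.8 mM the mean of *Rgs2* (5.01 RPKM) was above that of *Rgs11* (3.19 RPKM) and the mean of *Rgs3* (1.07 RPKM) above that of *Rgs9* (0.821 RPKM). At 16.8 mM both pairs were the other way round, and *Rgs17* (0.413 RPKM) was also above *Rgs3* (0.354 RPKM). If all reads are assigned to exons of the longest transcript, the mean RPKM over exons in the 4 libraries was 37.8 for *Rgs9*, 36.7 for *Rgs4* and 21.8 for *Rgs7*, with *Rgs11* between *Rgs4* and *Rgs7*. It was 7.77 for *Rgs2*, 5.86 for *Rgs16*, 3.69 for *Rgs17* and 0.0652 for *Rgs8*. *Rgs7* and *Rgs9* gained most. This follows from the calculation, as their longest transcripts have the longest introns relative to their exons among these genes. By exon, too, the order turned with glucose. At 2.8 mM *Rgs9* (24.6) was above *Rgs4* (18.3) and *Rgs7* (20.9) above *Rgs11* (12.8), whereas at 16.8 mM *Rgs4* (55.1) was above *Rgs9* (50.9) and *Rgs11* (35.2) above *Rgs7* (22.7). How many reads lay in introns was not tested, and any that did would make the level over exons lower than given here. *Rgs3* is left out because its entries could not be matched to a span. Other genes with many reads were likewise given the longest annotated span without a match. Transcripts of *Rgs7* with 4 or more exons span 10.158 to 431.395 kb. The ranges were 7.455 to 72.775 kb for *Rgs9* and 0.996 to 8.365 kb for *Rgs11*. The levels and ranks of these genes over exons are thus uncertain too. The ratio of a gene's RPKM between the groups is the same by either length.

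**Figure D3:**
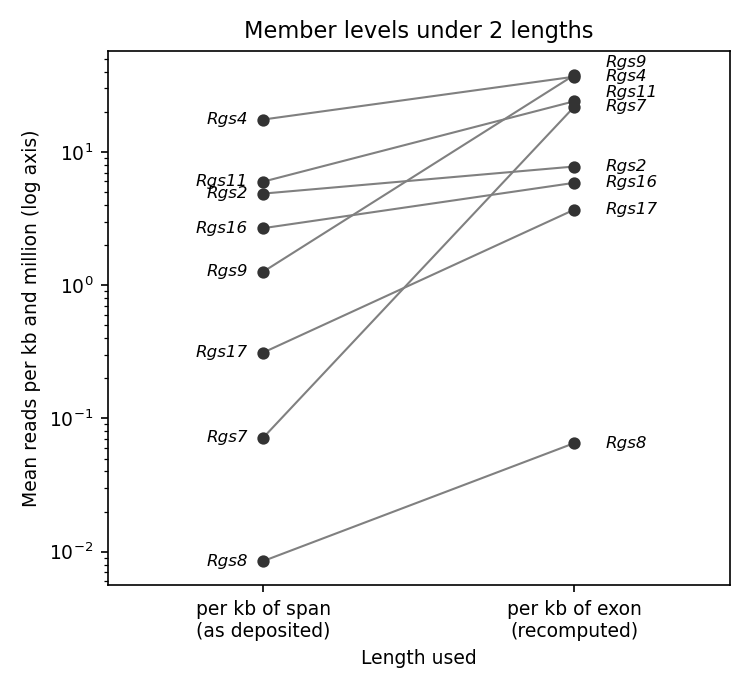
Mean RPKM over the 4 libraries (log axis) for 8 RGS genes, by the genomic span as deposited (left) and by exons (right), with a line for each gene. On the right the same reads are assigned to exons of the longest annotated transcript. *Rgs7* rises from eighth of the 9 genes by span to 21.8 by exon, whereas *Rgs8* stays lowest at 0.0652.

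Of the 9 members 5 (*Rgs2*, *Rgs4*, *Rgs7*, *Rgs8* and *Rgs16*) lie on chromosome 1 (NCBI build 37). *Rgs4* is at chr1:171671608-171677773 on the minus strand, 45.7 kb from *Rgs5*. *Rgs8* (chr1:155500155-155544797, plus strand) and *Rgs16* (chr1:155587479-155592598, plus strand) are separated by 42.7 kb, and of this pair *Rgs16* rose whereas *Rgs8* was barely detected. *Rgs5*, an R4 gene of pericytes, measured 0.139 and 0.101 RPKM at 2.8 mM and 0.161 and 0.143 RPKM at 16.8 mM glucose and did not pass the test in voom (log2 fold change 0.35, adjusted p = 0.15). *Rgs2* (chr1:145846468-145851291, minus strand) lies 134.5 kb from *Rgs13*.

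The promoters of 4 of the 5 genes called higher in voom are shown, as no window was matched for *Rgs11*. Each is given as the 250 bases before the RefSeq start (GRCm38.p6), read 5′ to 3′ on the gene's strand. *Rgs4* is at chr1:169747643-169747892 (minus strand), *Rgs16* at chr1:153740103-153740352 (plus strand), *Rgs9* at chr11:109298182-109298431 (minus strand) and *Rgs17* at chr10:5922401-5922650 (minus strand). Capitals mark the motifs searched, on either strand: the cAMP response element (letters TGACGTCA) or the core within it (letters TGACG), the E-box (letters CACGTG), the GC box (letters GGGCGG), the TATA box (letters TATAAA) and the AP-1 site (letters TGAGTCA).
Rgs4: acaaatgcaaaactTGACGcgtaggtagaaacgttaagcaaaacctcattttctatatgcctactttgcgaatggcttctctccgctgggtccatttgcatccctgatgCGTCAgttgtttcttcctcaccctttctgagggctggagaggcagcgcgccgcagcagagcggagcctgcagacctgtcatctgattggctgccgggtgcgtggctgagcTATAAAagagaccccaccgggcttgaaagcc
Rgs16: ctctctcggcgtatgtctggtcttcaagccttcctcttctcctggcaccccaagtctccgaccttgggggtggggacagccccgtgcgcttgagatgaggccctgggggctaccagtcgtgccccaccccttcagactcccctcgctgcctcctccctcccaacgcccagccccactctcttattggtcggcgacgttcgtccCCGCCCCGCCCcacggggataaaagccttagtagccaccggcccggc
Rgs9: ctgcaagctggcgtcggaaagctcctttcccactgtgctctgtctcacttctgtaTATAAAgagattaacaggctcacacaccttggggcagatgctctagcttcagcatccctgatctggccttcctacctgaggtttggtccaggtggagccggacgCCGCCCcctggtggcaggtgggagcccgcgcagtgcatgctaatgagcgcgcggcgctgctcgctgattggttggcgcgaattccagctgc
Rgs17: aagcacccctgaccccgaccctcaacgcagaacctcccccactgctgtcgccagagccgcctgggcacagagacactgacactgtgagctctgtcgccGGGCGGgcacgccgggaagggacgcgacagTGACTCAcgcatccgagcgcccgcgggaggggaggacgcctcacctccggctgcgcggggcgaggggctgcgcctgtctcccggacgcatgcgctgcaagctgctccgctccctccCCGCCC

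The *Rgs4* window holds a TATA box 31 bases before the start and 2 copies of the core of the cAMP response element, 236 and 141 bases before it. The *Rgs16* window holds 2 overlapping GC boxes, 47 and 42 bases before the start. The *Rgs9* window holds a GC box 91 bases and a TATA box 195 bases before the start, and the *Rgs17* window has GC boxes 152 and 6 bases and an AP-1 site 122 bases before it. No motif is shared by all 4 windows. RefSeq windows were matched for 8 of the 9 members, 11 windows in all, and not for *Rgs11*. The GC box was in 5 of the 11 and in 32.7% of all 32851 windows of this length, the TATA box in 4 and 12.4%, and the core of the cAMP response element in 3 and 17.8%. The E-box was in 1 of the 11 and in 6.02% of all windows, the AP-1 site in 1 and 4.46%, and the full cAMP response element in 0 and 1.55%. These are matches of letters and not binding sites.

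None of the partners of R7 proteins was called higher beside *Rgs9* and *Rgs11*. *Gnb5*, the obligate beta subunit, had 0.672 and 0.643 RPKM at 2.8 mM and 0.622 and 0.541 RPKM at 16.8 mM glucose, with a voom log2 fold change of -0.18 and a 95% interval from -0.42 to 0.06 (adjusted p = 0.216). *Rgs9bp*, the membrane anchor of *Rgs9* in photoreceptors, fell from 0.213 and 0.234 RPKM to 0.0875 and 0.0598 RPKM, although on only 20 to 82 reads per library (voom log2 fold change -1.59, adjusted p = 3.3e-04). *Rgs7bp*, which anchors R7 proteins at the membrane, fell by 0.61 on the log2 scale in voom (adjusted p = 6.6e-04). Of the 4 partners compared in voom 0 were higher and 2 lower, with a median log2 fold change of -0.40 beside -0.13 over all genes in that fit. The share of partners called was 50%, beside 43% of all genes.

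The 19 other genes listed here for an RGS domain were low per span, and 0 of 19 reached 1 RPKM on average. The receptor kinases were listed apart and are not counted among them. A value per span puts long genes low. *Snx13*, over a longest span of 100280 bases, had 2145 to 3625 reconstructed reads per library, against 447 to 1066 for *Rgs16*. In voom 13 of the 19 were compared, of which 2 were higher and 5 lower, with a median of -0.30. The share called was 53.8%, beside 43% of all genes in voom. The 2 that rose were *Rgs10* (log2 fold change 0.85, adjusted p = 0.00562) and *Rgs1* (0.77, adjusted p = 0.00800). The largest falls were in *Rgs12* (-0.61, adjusted p = 0.0237), *Axin1*, a scaffold of the Wnt pathway (-0.59, adjusted p = 1.7e-04), and *Snx13*, a sorting nexin (-0.51, adjusted p = 3.4e-04). *Rgs6*, the remaining R7 gene, had at most 21 reads in a library and was not compared.

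The alpha subunits, the substrates of RGS proteins, were lower where they changed in limma, with 0 higher and 4 lower of 8 tested. *Gnai2*, a Gi subunit, had 32.7 and 31.5 RPKM at 2.8 mM and 15.8 and 14.3 RPKM at 16.8 mM glucose, 2.13-fold lower (log2 fold change -1.07, SE 0.12, adjusted p = 0.00143). *Gna11*, a Gq subunit, changed by -0.52 (adjusted p = 0.0121) and *Gnat2*, a transducin, by -0.51 (adjusted p = 0.00478). *Gnaq* overlapped between the groups (log2 fold change 0.04, limma adjusted p = 0.753), and *Gnao1* had a log2 fold change of 0.09 (limma adjusted p = 0.449). The median over the 8 was -0.13, beside -0.11 over all transcripts tested. In voom 2 of 14 alpha subunits were higher and 6 lower. The shares called were 50% in limma and 57.1% in voom, beside 33.4% and 43% over all features.

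Of 6 beta and gamma subunits tested in limma 2 were higher and 0 lower. Of 12 compared in voom 3 were higher and 2, *Gnb1* and *Gng2*, were lower. The shares called, 33.3% in limma and 41.7% in voom, lay near those over all features, 33.4% and 43%. *Gng12* rose from 1.65 and 1.61 RPKM to 3.66 and 4.28 RPKM (log2 fold change 1.06, SE 0.10, adjusted p = 6.6e-04), and *Gng4* rose by 0.65 on the log2 scale (adjusted p = 0.00308). Among receptor kinases and arrestins 1 of 3 tested passed, the arrestin *Arrb2*, which was lower (-0.54, adjusted p = 0.00697). In voom 1 of 7 was higher and 4 were lower. The shares called in this list were 33.3% in limma and 71.4% in voom, beside 33.4% and 43% over all features.

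Receptors that signal through these proteins moved in both directions, with 5 higher and 3 lower of 9 tested in limma. *Ffar1*, the Gq-coupled fatty acid receptor, rose from 9.08 and 9.09 RPKM to 24.5 and 25.7 RPKM (log2 fold change 1.42, SE 0.11, adjusted p = 4.2e-04). *Adra2a*, the Gi-coupled adrenaline receptor, rose from 6.09 and 5.59 RPKM to 15.7 and 16.5 RPKM (1.39, SE 0.11, adjusted p = 4.3e-04). *P2ry1*, a Gq-coupled nucleotide receptor, rose by 1.03 on the log2 scale (adjusted p = 0.00173). The somatostatin receptor *Sstr3* (-0.71, adjusted p = 0.00423), the glucagon receptor *Gcgr* (-0.70, adjusted p = 0.00117) and the GLP-1 receptor *Glp1r* (-0.39, adjusted p = 0.0266) were lower. The GIP receptor *Gipr*, Gs-coupled, was also higher (0.88, limma adjusted p = 0.0018). Of the 5 called higher, the galanin receptor *Galr1* (0.835 and 0.849 RPKM against 1.70 and 1.60 RPKM) passed the minimum through its 16.8 mM libraries. In voom 7 of 20 receptors were higher and 3 lower, with a median log2 fold change of 0.21, beside 0.68 over the 9 in limma. The shares of receptors called were 88.9% in limma and 50% in voom, beside 33.4% and 43% over all features.

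Effectors of Gq were low per span, and *Itpr3* was the 1 of 11 tested in limma, where it did not pass (log2 fold change -0.06, adjusted p = 0.566). In voom 0 of 10 were higher and 8 lower, with a median of -0.46. The share called was 80%, beside 43% of all genes in that fit, of which 29.3% were lower. The largest falls were in the protein kinases C *Prkcd* (-0.75, adjusted p = 7.6e-05) and *Prkce* (-0.59, adjusted p = 8.5e-05) and in the IP3 receptor *Itpr1* (-0.57, adjusted p = 1.5e-04). Among other regulators of G proteins 0 of 2 tested passed in limma. In voom 2 of 6 were higher, *Pcp2* (1.06, adjusted p = 0.0174) and *Ric8b* (0.39, adjusted p = 0.00342), and 1 lower, *Ccdc88a* (-0.88, adjusted p = 9.9e-07). These calls made 50% of the regulators compared, beside 43% of all genes in voom.

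**Figure D4:**
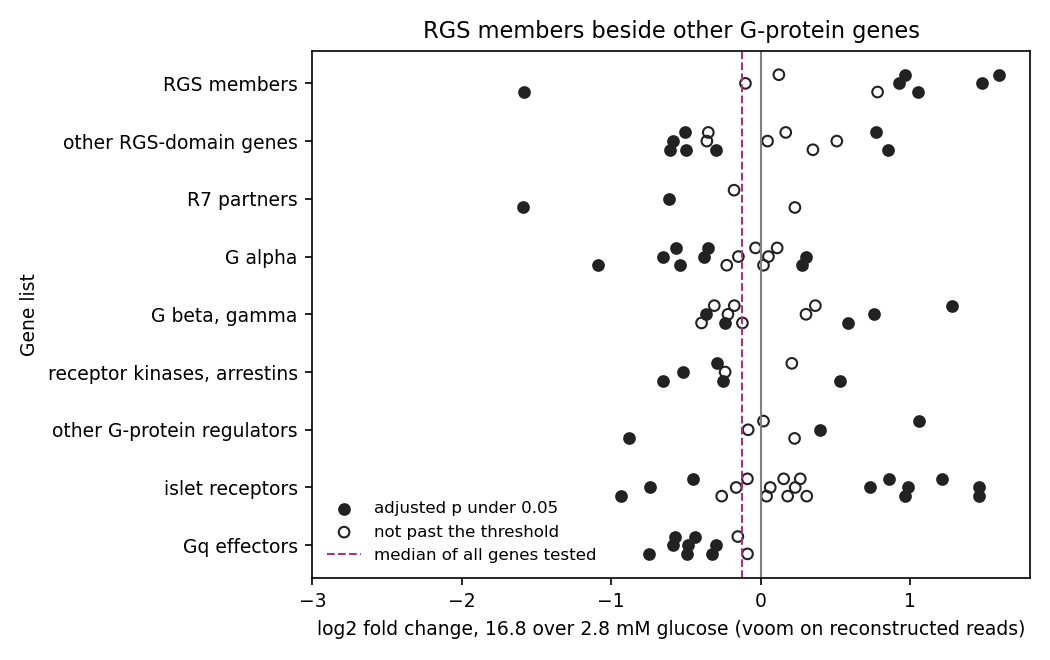
Log2 fold change in voom of the RGS genes and of 8 lists of G-protein genes, 1 point per gene, filled where the adjusted p is under 0.05, with a dashed line at the median of all genes compared (-0.13). On the right of 0 lie 5 RGS genes as filled points and 1 left of it, whereas 8 of the 10 Gq effectors are filled points left of 0.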

How the data were processed

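RNA-seq of mouse islets gave 2 libraries at each glucose concentration, grouped by their titles. The authors deposited 1 table of RPKM values, in which 0 columns of other samples were found. The submitters' processing notes name STAR, bedtools, DESeq and mm9, without their roles. Values were taken as log2(RPKM + 0.5), and limma 3.58.1 (R 4.3.3) was run on those averaging 1 RPKM or more, with identical entries used once (trend, two-sided, Benjamini-Hochberg, threshold 0.05). The added 0.5 RPKM understates changes of low genes. Reads were reconstructed from RPKM, GENCODE spans (NCBI build 37) and depth for 87.2% of entries, and limma voom compared those averaging 20 reads or more. Genes with many reads were given the longest annotated span. The reconstructed reads are estimates. Depth lay between 50810800 and 60719200 reads, and low genes such as *Rgs8* had few (10 to 29 per library). Whether depth or the 2 libraries per group limited precision more was not tested. Tables and plots were made with pandas 2.3.3, numpy 2.4.6 and matplotlib 3.10.9 under Python 3.11.15.

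The members and the gene lists were chosen with earlier results of these data known. Genes named were the 9 members and, of each list, the 3 largest rises and falls past the threshold, by voom where limma tested no gene or called none. *Rgs5*, *Rgs6*, *Gnaq*, *Gnao1*, *Gnb5*, *Itpr3*, *Gnb1*, *Gng2*, *Gipr*, *Galr1*, *Pecam1* and *Cdh5* were named after their values were seen. Alternatives were other scalings (in limma only), minima, added values, thresholds and entries, the replicate block, voom, and leaving out each library. Voom on the shortest spans and voom without each library were chosen after seeing the data. Promoter sequences are from RefSeq (GRCm38.p6). The values of 1 list of markers are not reported here.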

Additional observations from a re-analysis of the deposited data

How the results depend on the processing

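The 4 RGS genes called higher kept their direction under all alternatives that tested them, and their side of the threshold except *Rgs11* with no minimum (adjusted p = 0.0622). The number of members called was 3 to 6 under the other settings, 4 with each library left out of limma and 6 or 7 with each left out of voom, where the 7 came without replicate 1 at 16.8 mM. *Rgs2* reversed without replicate 2 at 16.8 mM, to 0.157 in limma and 0.170 in voom, and was past the threshold in neither. Its lowest value, -0.395, came in voom without replicate 1 at 16.8 mM (adjusted p = 0.027). Of the 29 other G-protein genes tested in limma 15 were called, 51.7% beside 33.4% of all transcripts. Voom, which tests more genes, called 48 of 86 (55.8%, beside 43% of all), or 45 on the shortest spans. With each library left out, the number was 13 to 14 in limma and 25 to 40 in voom. In limma, scaling moved the share of higher calls among all transcripts from 31.9% to 44.1% with each library centred on its median. With quantile normalization the share was 42.3%, and the RGS count stayed at 4 under either scaling. The voom fits used the recovered depth, and other scalings were not tried in voom.

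The labels number the libraries 1 and 2 in each group without saying that a number marks a shared source. Deviations of same-numbered libraries from their group means had a correlation of 0.31 over 7867 transcripts. With the replicate block 4 RGS genes were called in limma and 6 in voom, 21 other G-protein genes in limma and 60 in voom, and 4067 transcripts in all in place of 2628.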
